A study of Mus musculus with 4 samples.

Results

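*Hmga2* *Htr2b* *Pdpn* macrophages were described here as a cell population of the injured mouse muscle 2 days after cardiotoxin (dpi2), and 936 cells were selected for it on their own transcripts out of 20500 cell barcodes in the series. A cell was included when it held at least 1 UMI (a distinct RNA molecule) of *Pdpn*, at least 1 of *Spp1*, and at least 1 of *Hmga2* and *Htr2b* together. It also had to hold at least 500 genes, under 10% mitochondrial UMIs, under 100 *S100a8* plus *S100a9* UMIs per 10000, under 2 *Lyve1* plus *Cd163* UMIs, and not *Mki67* together with *Top2a*. The rule found 731 cells among 6010 kept barcodes of the control library and 205 among 3799 of the KO library. These transcripts chose the cells, so their levels in them are a description and were not tested.

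CD45+ cells were isolated with magnetic beads from the tibialis anterior of male C57BL/6 mice aged 8 to 12 weeks, and their transcripts were counted at the 3′ end, cell by cell, in droplets. Control animals were Bach1 fl/fl littermates, and KO animals were Bach1 fl/fl with Lyz2Cre; both groups therefore carried the floxed allele, in which loxP sites flank an exon of the gene for BACH1, and both were injured. Cre expression from the *Lyz2* promoter reaches monocytes, macrophages and neutrophils alike and is not specific to the cells described here. There was 1 library per genotype and time, so no spread between animals was measured, no test between genotypes was possible, and the intervals below are 95% intervals that cover counting error only.

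BACH1 is a heme-regulated repressor that competes with NRF2 at target genes for heme breakdown, iron storage and glutathione synthesis. After muscle injury, infiltrating Ly6C-high monocytes lose their inflammatory program as they become phagocytic macrophages that clear dead fibres. Osteopontin, the product of *Spp1*, is a secreted matrix protein of such macrophages, CD36 is a receptor for oxidised lipids and apoptotic cells, podoplanin is a surface mucin that binds CLEC-2, *Htr2b* encodes a serotonin receptor, and *Hmga2* encodes an architectural chromatin protein that let-7 microRNAs repress in adult tissue.

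The members held the defining markers of macrophages and, at a lower level, those of monocytes. All 8 macrophage markers were detected and every member held at least 1 of them, at a summed level of 9352 CPM in the control and 11766 CPM in the KO library, where CPM are a gene's UMIs summed over the members of a library, divided by all their UMIs and multiplied by 1e+06. These markers do not set members apart from monocytes by detection alone, since 98.9% of control and 96.9% of KO *Ly6c2* monocytes, cells with *Ly6c2* and without *Spp1*, *Pdpn*, *Hmga2* and *Htr2b*, also held at least 1, at 3328 and 4182 CPM. The 5 monocyte markers summed to 758 and 470 CPM in members and were found in 93.7% and 84.4% of them, against 10305 and 7621 CPM in the *Ly6c2* monocytes. The 5 markers of the lymphatic endothelium, which also makes podoplanin, summed to 13.4 and 4.49 CPM, most of it *Kdr* at 11.2 and 3.33 CPM, with *Prox1* and *Mmrn1* at 0 UMIs in both libraries. At least 1 of these markers was found in 18.5% of control and 12.7% of KO members. The 6 fibroblast markers summed to 2.95 and 2.03 CPM. The 5 T cell markers summed to 2.12 and 0.725 CPM, with *Cd3e* at 0 in both libraries. The 7 neutrophil markers summed to 168 CPM in control and 334 CPM in KO members, with *Ly6g* at 0 in both. Without *S100a8* and *S100a9*, which the rule limits in members, the other 5 summed to 85.2 and 98.1 CPM. The 6 dendritic cell markers summed to 3.12 and 21.9 CPM, most of the latter from *Ccr7*. The 5 platelet markers summed to 3400 and 5031 CPM, of which *Pf4* was 3377 and 4898 CPM and *Ppbp* 22.8 and 133 CPM, with 59.6% of the KO *Ppbp* UMIs in 1 cell. *Itga2b* had 3 and 2 UMIs, and *Gp9* and *Gp1bb* were at 0. Cells were deep, with a median of 21996 UMIs in the control and 31849 in the KO members against 10983 and 11934 over all kept barcodes. Of the barcodes, 14 sequences occurred in both dpi2 libraries, and 4 of those entries met the rule.

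*Pdpn* and *Spp1*, the alternatives *Hmga2* and *Htr2b*, and *Cd36* lie at separate places in the genome. In the GRCm38 assembly *Pdpn* spans chr4:143267431-143299564 on the minus strand, *Hmga2* spans chr10:120361275-120476469 on the minus strand, *Htr2b* spans chr1:86099026-86111970 on the minus strand, *Spp1* spans chr5:104435118-104441050 on the plus strand and *Cd36* spans chr5:17781690-17888801 on the minus strand. All of them are protein-coding.

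Among the kept barcodes, *Spp1* was found in most and *Hmga2* was rare. *Spp1* was detected in 89.1% of control and 77.3% of KO barcodes, and *Pdpn* in 28.6% and 25.7%. *Htr2b* was detected in 12.4% and 6.34%, and *Hmga2* in 8.42% and 1.92%. The *Spp1* limit alone did not separate macrophages, since 13 of 24 control and 5 of 13 KO cells with *Cd3e* and without *Csf1r* also held a UMI. Their median depths were 3812.5 and 5662 UMIs. *Hmga2* was found in none of these 24 and 13 cells, a count that allows up to 12.5% and 23.1% of such cells to hold a UMI, and *Pdpn* and *Htr2b* were each found in 1 control and 0 KO cells. The limit that turned most cells away was the one on *Hmga2* and *Htr2b*, which alone left out 795 control and 543 KO cells that met the rest. The *Pdpn* limit alone left out 170 and 36 cells, the *Spp1* limit 0 and 1, the *S100a8* and *S100a9* limit 1 and 4, the *Lyve1* and *Cd163* limit 12 and 17, and the limit on *Mki67* with *Top2a* 40 and 10.

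Cells that met the rule were a smaller part of the KO library at dpi2. Members made up 12.2% of kept control barcodes and 5.40% of kept KO barcodes, a difference of -6.77 percentage points (-7.87 to -5.65). At dpi4 the same rule found 194 control and 166 KO cells, or 4.49% and 4.70%, a difference of 0.211 points (-0.733 to 1.17). Detection of 1 UMI depends on depth, so the dpi2 share was set against the UMIs per cell within the cells that met the mitochondrial, gene number and exclusion limits. From 20000 to 40000 UMIs, 413 of 824 control cells (50.1%, 46.7 to 53.6) and 127 of 679 KO cells (18.7%, 15.8 to 21.8) were members. From 10000 to 20000 UMIs the shares were 10.8% and 2.07%, and at 40000 or more they were 75% and 47.4%. The KO share lay below the control share in all 5 depth ranges, and the intervals overlapped in the ranges below 10000 UMIs. Among cells of at least 5000 UMIs, each thinned to that depth, members were 6.26% and 2.61%. The rule asks for *Hmga2* or *Htr2b*, so all these shares follow the level of both genes. Cells left out on that limit alone were 13.2% of kept control and 14.3% of kept KO barcodes. Fewer cells of this kind cannot be told apart from such cells with less of these transcripts. Of kept barcodes, 86.1% in control and 68.1% in KO passed the exclusion limits.

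**Figure D1:**
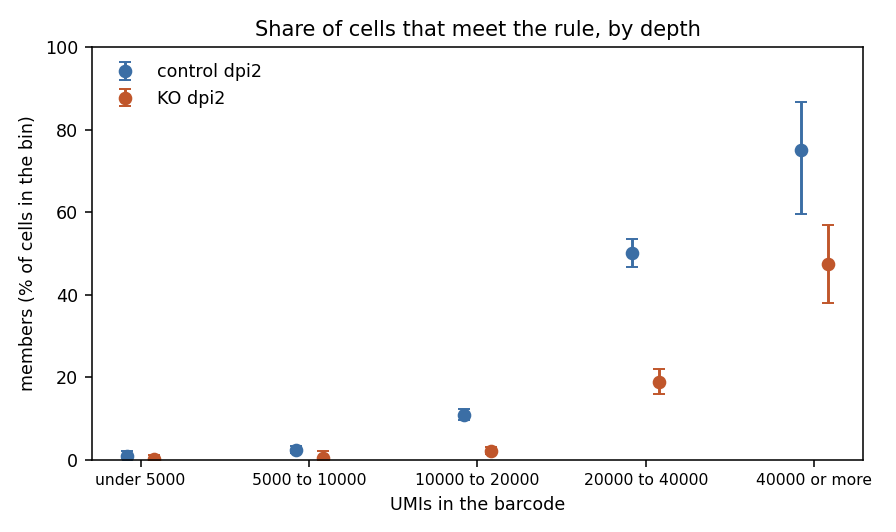
Share of cells that met the rule (%, points; bars, exact 95% binomial intervals) by UMIs per barcode in the control and KO libraries at dpi2. The share climbed with depth in both libraries and stood at 50.1% in control against 18.7% in KO from 20000 to 40000 UMIs.

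The genes of the rule differed from each other between the libraries, which is a description, since they chose the cells. To read each gene without its own limit, cells were taken that met the rest of the rule whatever their count of that gene. In 1526 control and 748 KO cells with *Pdpn* and *Spp1*, *Hmga2* stood at 45.5 CPM (43.1 to 48.0) and 8.58 CPM (7.35 to 9.97), a log2 ratio of KO over control of -2.41 (-2.64 to -2.18). *Htr2b* in the same cells stood at 59.0 and 26.2 CPM, a log2 ratio of -1.17 (-1.32 to -1.03). Thinned to 5000 UMIs, 13.5% of control and 2.57% of KO cells held *Hmga2*, and 18.6% and 7.45% held *Htr2b*. *Pdpn* was detected in fewer KO barcodes over all, as given above, but in 901 and 241 cells with *Spp1* and either of the other genes it stood at 259 and 355 CPM, a log2 ratio of 0.45 (0.38 to 0.52), and thinned shares of cells were 57.0% and 60.2%, a difference whose interval ran from -4.19 to 10.3 points.

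Within the members the 2 libraries also divided differently between *Hmga2* and *Htr2b*. In control, 22.4% of members held *Hmga2* alone, 46.2% held *Htr2b* alone and 31.3% held both. In KO the shares were 13.7%, 74.1% and 12.2%. *Htr2b* alone was therefore the commonest state in both and more so in KO. Control members with both transcripts held the most *Spp1* at 24553 CPM, against 19175 CPM with *Htr2b* alone and 17850 CPM with *Hmga2* alone. *Ly6c2*, a surface marker of inflammatory monocytes, ran in the opposite order in control, at 108 CPM with both, 163 CPM with *Htr2b* alone and 276 CPM with *Hmga2* alone. *Ccr2* followed that order, at 92.2, 175 and 249 CPM. *Vcan*, *Fn1* and *Il1b* did not and were highest with *Htr2b* alone, at 45.3, 717 and 156 CPM. Median depth in control was 25122 UMIs with both, 21848 with *Htr2b* alone and 19604 with *Hmga2* alone. In KO members *Spp1* stood at 19135, 16353 and 13259 CPM and *Ly6c2* at 39.5, 54.6 and 303 CPM in these states. The KO values rest on 28 cells with *Hmga2* alone and 25 with both. One of the cells with *Hmga2* alone held 232 of their 260 *Ly6c2* UMIs and the others 28, and 1 cell held 4446 of the 11394 *Spp1* UMIs in that state, so no order of either gene is read from the KO members.

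Cells on either side of the *Pdpn* limit were set side by side. The 100 control members with 1 *Pdpn* UMI held 15014 CPM of *Spp1* and 1201 CPM of *Cd36*, against 21462 and 1616 CPM in the 631 with 2 or more, and 10138 and 788 CPM in the 170 cells left out on *Pdpn* alone. In the 17 KO members with 1 *Pdpn* UMI these were 10835 and 587 CPM, in the 188 with 2 or more 16715 and 1399 CPM, and in the 36 left out 7027 and 632 CPM. *Spp1* at the limit thus lay between both neighbours in each library, while *Cd36* did so in control and not in KO.

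*Spp1* varied widely from cell to cell. It ran from 1.19 to 1053 UMIs per 10000 in control members with a median of 146, and from 0.348 to 745 with a median of 120 in KO members. *Cd36*, which the rule did not use, was found in 714 of 731 control and 193 of 205 KO members, with medians of 13.2 and 11.5 UMIs per 10000. *Pdpn* had medians of 2.28 and 2.86, *Htr2b* of 0.803 and 0.568, and *Hmga2* of 0.356 and 0. The ranges of the 2 libraries overlapped for each of these genes.

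**Figure D2:**
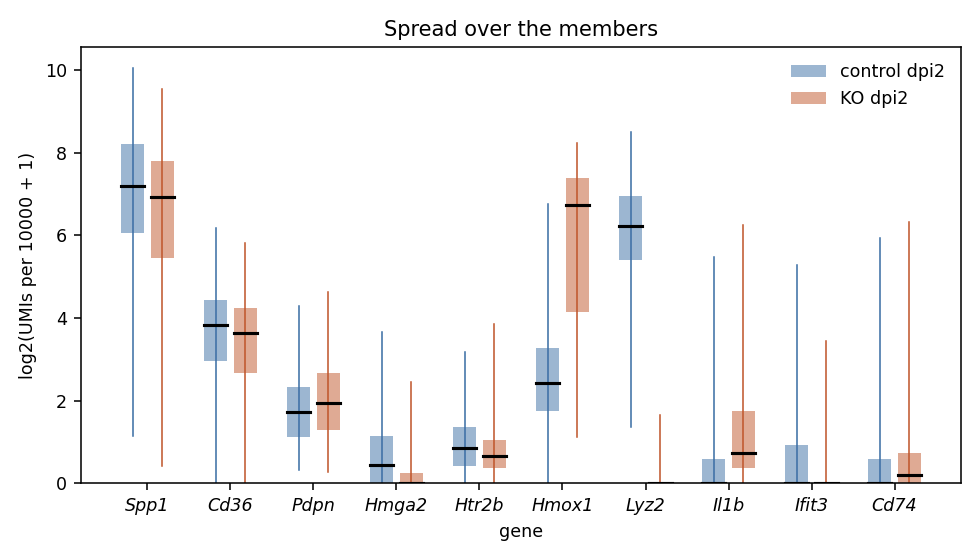
Spread over the members on a log2(UMIs per 10000 + 1) scale: boxes span the quartiles, black bars are medians and thin lines reach from the lowest to the highest cell in control (731 cells) and KO (205 cells) at dpi2. *Hmox1* and *Lyz2* part the libraries most, while *Spp1*, *Cd36* and *Pdpn* overlap.

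Members were then set beside cells with *Spp1* and *Csf1r* and without *Pdpn*, *Hmga2* and *Htr2b* in the same library (2541 control and 1032 KO cells, called gate-negative here). Their median depth was 10654 and 14537 UMIs, lower than that of members. A gene was counted when it differed by at least 2-fold with an interval that left out 1, with at least 50 UMIs in the pair, in both libraries alike. Of 9777 genes, 413 were higher in members (4.22%) and 611 lower (6.25%). Since transcripts chose both sets of cells, this is a description of the population and not a test. Scaling by TMM moved all log2 ratios of members over gate-negative cells by -0.12 in control and -0.03 in KO.

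Lipid handling genes were higher in members of both libraries. Of 18 genes of lipid handling, 11 were higher in members in both libraries and none lower, with a median log2 ratio of 1.34 in control and 1.25 in KO beside 0.09 and 0.03 over all genes. Against only the gate-negative cells with *Adgre1* and without *Flt3*, *Cd209a* and *Klrd1*, 8 of the 18 were higher and none lower, with medians of 1.17 and 1.03. *Cd36* stood at 1571 against 225 CPM in control and at 1351 against 234 CPM in KO. *Fabp5*, a cytosolic fatty acid carrier, stood at 6914 against 1593 CPM and at 6885 against 1566 CPM. *Fabp4* of the same family stood at 613 against 106 CPM and at 405 against 99.4 CPM. *Lpl*, which releases fatty acids from lipoproteins, stood at 1582 against 354 CPM in control, and *Trem2*, a lipid-sensing receptor, at 787 against 223 CPM. The lysosomal proteases *Ctsd* and *Ctsb* belong to this list of 18 and were higher. *Ctsl*, of the list of proteases, was higher at 4611 against 613 CPM in control and 3608 against 628 CPM in KO. *Pparg*, the nuclear receptor for fatty acids, was not among the 11, with log2 ratios of 0.34 and 0.36.

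Repair and state markers were divided. Of the 12 markers of the study's cell states 3 were higher in members and 5 lower, with median log2 ratios of -0.29 and -0.23, and of 15 repair factors 3 were higher and 2 lower, with medians of 0.29 and -0.25. The state markers are genes by which the study describes cell states in these samples. The lower ones were *F10*, *Clec4a1*, *Ccl6*, *Ccl9* and *Itgax* of the state markers, and the cytokines *Osm* and *Il10* of the repair factors. *F10*, which encodes coagulation factor X, stood at 37.7 CPM in control members against 182 CPM in gate-negative cells, and at 52.3 against 206 CPM in KO. Of the higher ones, *Gpnmb*, a glycoprotein of phagocytic macrophages, had log2 ratios of 2.63 and 2.54, *Igf1*, a growth factor for muscle, of 2.80 and 1.55, and *Hpgds*, which makes prostaglandin D2, of 1.44 and 1.35. *Jag1*, a Notch ligand, had 3.05 and 1.91. Of 15 proteases and inhibitors 5 were higher in members and 2 lower. *Mmp12*, the macrophage elastase, stood at 77.8 against 13.6 CPM in control and 119 against 11.05 CPM in KO, where 1 cell held 37.97% of its UMIs. *Igf2bp2*, an RNA-binding protein, was higher at 51.5 against 11.3 CPM and at 40.6 against 5.99 CPM. *Lin28a*, *Lin28b* and *Igf2bp1* of the same list were not detected in any member. *Cd9*, a tetraspanin that binds podoplanin, was the 1 gene higher among 6 podoplanin partners scored, at 491 against 121 CPM in control.

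The serotonin list gave little beside *Htr2b*. *Tph1*, which makes serotonin, and *Htr4* were at 0 UMIs in members of both libraries, *Htr1b* was in 0 and 1 cells and *Htr7* in 3 and 1 cells. *Htr7* was lower in members than in gate-negative cells. *Maoa*, which degrades serotonin, was higher in members at 5.30 against 1.36 CPM in control and 3.77 against 1.88 CPM in KO, where it rested on 26 and 32 UMIs. Against the gate-negative cells with *Adgre1* and without *Flt3*, *Cd209a* and *Klrd1*, *Maoa* no longer passed, with log2 ratios of 1.63 and 0.86. Of the 7 osteopontin receptor genes scored none was higher and *Itga4* was lower, with log2 ratios of -1.85 and -1.48.

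Monocyte, interferon, antigen presentation and inflammatory genes were lower in members. Of 10 monocyte genes 8 were lower, *Plac8* at 152 against 2258 CPM in control and 60 against 872 CPM in KO, and *Ly6c2* at 167 against 1569 CPM and 83.3 against 507 CPM. All 7 MHC class II genes were lower, with median log2 ratios of -3.46 and -3.28. The gate-negative cells held dendritic cell transcripts, however, with *Cd209a* at 42.4 and 82.6 CPM. Against only those 1637 and 692 gate-negative cells with *Adgre1* and without *Flt3*, *Cd209a* and *Klrd1*, an alternative added after the data were seen, the 6 class II genes scored were still lower, with medians of -1.93 and -1.64. Of 15 interferon genes 13 were lower under either comparison. Of 17 inflammatory genes 9 were lower, *Il1b* at 113 against 1518 CPM in control and 394 against 3067 CPM in KO. None of 13 macrophage identity genes passed in either direction, and against the stricter comparison cells 1 did, the transcription factor gene *Maf*, which was lower at -1.13 and -1.07. *Adgre1*, which encodes F4/80, had log2 ratios of 0.87 and 0.83, and *Csf1r* had -0.87 and -0.76.

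**Figure D3:**
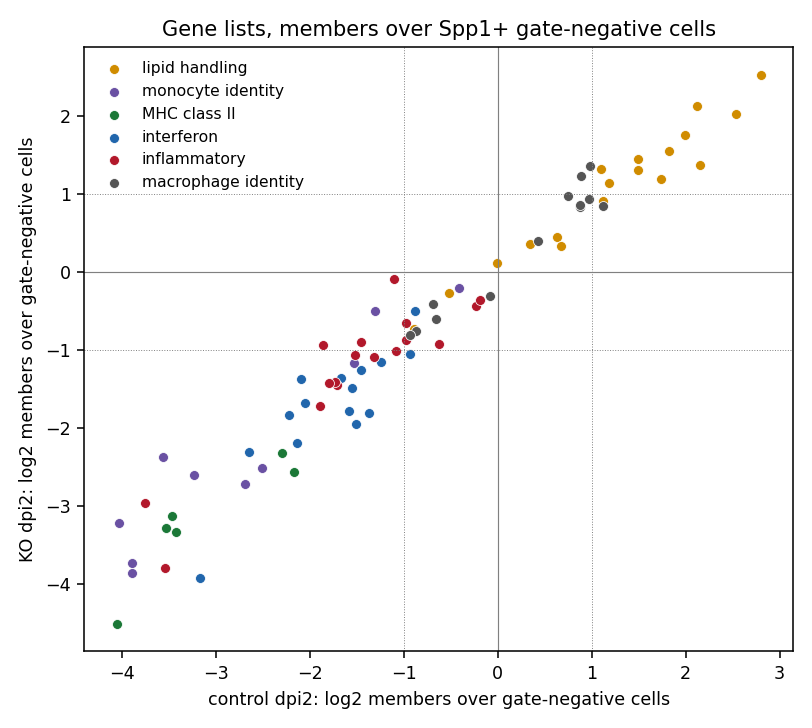
Log2 ratio of members over gate-negative *Spp1*+ cells in the control library (horizontal) and the KO library (vertical), 1 point per gene and dotted lines at 2-fold. Lipid handling genes lie to the upper right, and monocyte, MHC class II, interferon and most inflammatory genes to the lower left, in both libraries.

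The genes that most set members apart outside the rule were of low level. Ranked by the smaller of the 2 log2 ratios, the 12 highest were *Prss46*, *Npy*, *Plpp3*, *Cspg4*, *Col18a1*, *Oit3*, *Gpr176*, *Mical2*, *Gstm2*, *Adra1a*, *Myo1e* and *AI427809*. *Npy*, which encodes neuropeptide Y, stood at 42.4 against 2.10 CPM in control and 26.5 against 0.940 CPM in KO, and was found in 140 and 32 members. *Plpp3*, a lipid phosphate phosphatase, stood at 42.7 against 2.51 CPM and 65.1 against 4.29 CPM. *Cspg4*, the NG2 proteoglycan known from pericytes, stood at 19.98 against 1.32 CPM and 8.70 against 0.588 CPM. *Col18a1*, a basement membrane collagen, stood at 13.4 against 0.373 CPM and 9.57 against 0.705 CPM, and *Adra1a*, an adrenergic receptor, at 12.7 against 0.814 CPM and 12.2 against 1.47 CPM. *Myo1e*, an unconventional myosin, was the most widely found, in 613 control and 167 KO members, at 138 and 125 CPM. The 8 lowest were *Sparcl1*, *Gpr18*, *Klrd1*, *H2-Oa*, *Bex6*, *Cd209d*, *Serpinb10* and *Cd209a*. *Cd209a* encodes a lectin of monocyte-derived dendritic cells. *Klrd1*, a receptor of natural killer cells and some dendritic cells, stood at 1.18 against 38.5 CPM in control and 2.32 against 76.1 CPM in KO. *Sparcl1*, *Gpr18* and *Cd209d* had 0 UMIs in KO members, where a count of 0 allows up to 0.435 CPM. The study used *Klrd1* and *H2-Oa* to name dendritic cells. The gate-negative cells held 56.6 and 107 CPM of the dendritic cell markers in control and KO, and 10.4 and 6.76 CPM of natural killer cell markers. The part of such cells in the 8 lowest ratios was not tested.

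At equal depth the members were set beside *Lyve1*/*Cd163* cells, which held at least 2 UMIs of those genes, and *Ly6c2* monocytes, which held at least 2 UMIs of *Ly6c2* and none of *Spp1*, *Pdpn*, *Hmga2* or *Htr2b*. The monocytes were thus chosen to lack the genes of the rule, and 242 control and 32 KO members held 2 or more *Ly6c2* UMIs themselves. At 5000 UMIs a cell, *Gpnmb* was found in 86.1% and 82.4% of control and KO members, but in 30.1% and 32.9% of the *Lyve1*/*Cd163* cells (103 and 170 thinned cells) and in 11.7% and 8.26% of the *Ly6c2* monocytes (240 and 121). *Fabp4* was found in 57.99% and 46.1% of members and in 10.7% and 14.7% of *Lyve1*/*Cd163* cells. *Mrc1*, the mannose receptor, showed the reverse, in 40.1% and 50.98% of members and 93.2% and 91.2% of *Lyve1*/*Cd163* cells. *Ly6c2* was found in 27% and 12.3% of members.

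**Figure D4:**
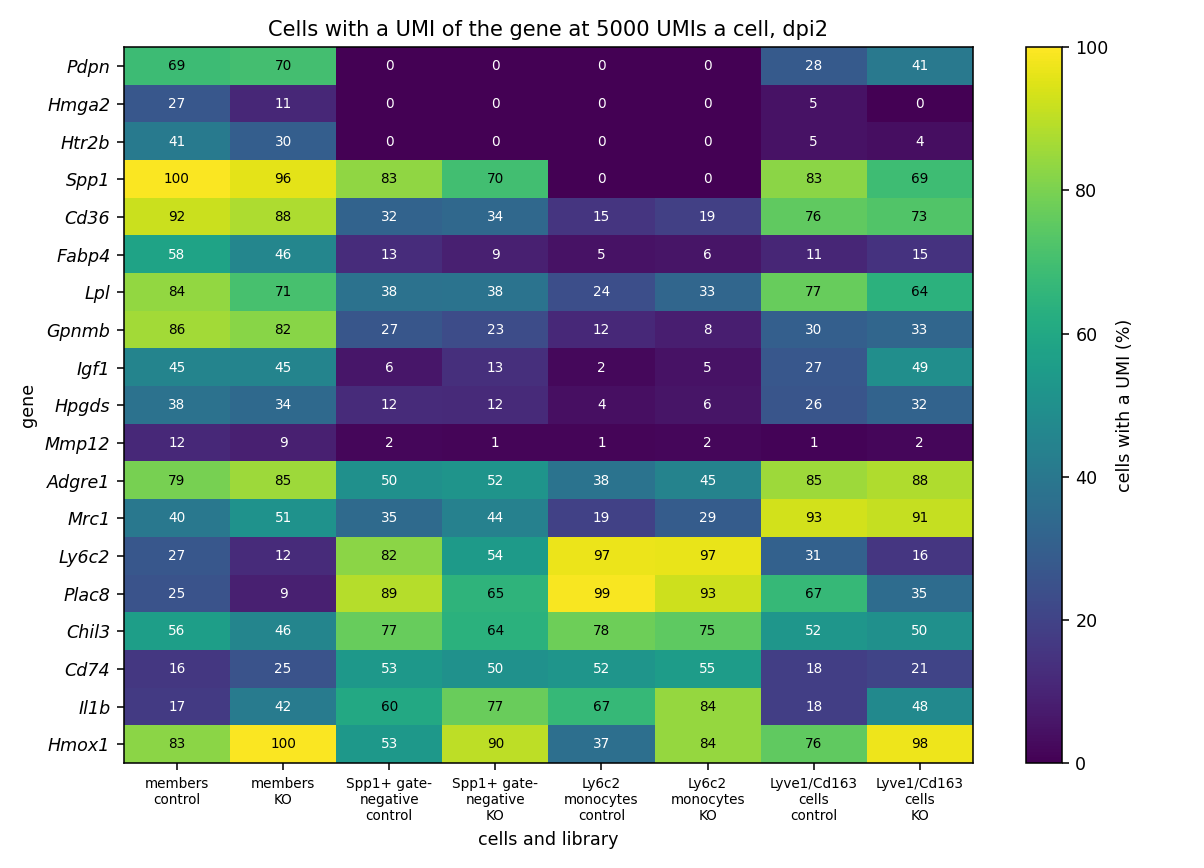
Share of cells in which a gene was detected (%, printed in each field) after thinning to 5000 UMIs, for members, gate-negative *Spp1*+ cells, *Ly6c2* monocytes and *Lyve1*/*Cd163* cells of both dpi2 libraries. The zeros of *Pdpn*, *Hmga2* and *Htr2b* in gate-negative cells, and of these and *Spp1* in *Ly6c2* monocytes, follow from how those cells were selected, whereas *Lyve1*/*Cd163* cells were not selected on these genes and *Hmga2* was found in none of the 170 thinned KO cells and in 2 of 171 before thinning.

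Members differed in how much of several monocyte transcripts they held. In control, 339 of 731 members held no *Ly6c2* and 242 held 2 or more UMIs, and in KO 142 of 205 and 32. Members with 2 or more *Ly6c2* UMIs held 330 CPM of *Plac8* in control against 49.8 CPM in those without, 269 against 102 CPM of *Ccr2*, and 209 against 60.9 CPM of *Il1b*. *Spp1* was at 16953 against 21700 CPM and *Cd36* at 1344 against 1740 CPM. In KO these genes held the same order, with *Plac8* at 314 against 8.53 CPM and *Spp1* at 14972 against 16424 CPM. *Fn1* of the monocyte list did not keep 1 order, at 573 against 722 CPM in control and 1175 against 711 CPM in KO. In KO, 40.3% of all *Ly6c2* UMIs of the members came from 1 cell.

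The second question was what differed between KO and control within the population. Of 9815 genes with at least 50 UMIs in the pair, 325 passed the size rule (3.31%), 159 higher in KO (1.62%) and 166 lower (1.69%), and the median log2 ratio over these genes was -0.03. The label was first checked on *Lyz2*, the gene that drives Cre. *Lyz2* stood at 9252 CPM in control members, all 731 of which held it, and at 10.3 CPM in KO members, 50 of which held it, a log2 ratio of -9.81 (-10.17 to -9.48). *Bach1* itself stood at 112 and 125 CPM, but 3′ counts do not tell transcripts with the floxed exon from those without and check nothing about the deletion. *Lyz1*, the neighbouring lysozyme gene on chromosome 10, stood at 7.07 and 442 CPM. *Lyz1* and *Lyz2* are near-identical copies, so how reads were split between them is uncertain.

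Heme and iron genes were higher in KO members. All 18 genes of the heme, iron and redox list had a ratio above 1, with a median log2 ratio of 1.04, and 8 of the 16 with enough UMIs passed the size rule, all higher. In gate-negative cells the list median was 0.73. *Hmox1*, whose product heme oxygenase-1 breaks heme down, stood at 748 CPM in control and 10361 CPM in KO, a 13.8-fold ratio (13.6 to 14.1). Its median per cell was 4.40 UMIs per 10000 in control and 105 in KO, where the quartiles were 16.8 and 165, and KO members were uneven. *Slc40a1*, the iron exporter ferroportin, stood at 1.59 CPM in 8 control cells and 38.99 CPM in 47 KO cells, and *Spic*, a transcription factor of heme-recycling macrophages, at 1.65 CPM in 20 cells and 54.6 CPM in 93 cells. *Slc7a11*, the cystine importer, was 5.82-fold higher, *Gclm* of glutathione synthesis 4.12-fold, the heme transporter *Slc48a1* 2.99-fold and the ferritin heavy chain *Fth1* 2.14-fold. *Ftl1*, the ferritin light chain, was at 22298 and 23421 CPM and did not pass. *Hmox1* was higher in the same direction in gate-negative cells, with a log2 ratio of 4.20, and under the same rule at dpi4, with 3.96. *Hmox1* UMIs were also found in 2 of 24 control and 8 of 13 KO cells with *Cd3e* and without *Csf1r*.

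Interferon-stimulated genes were lower in KO members without exception in the list. All 15 had a ratio below 1, with a median log2 ratio of -1.52, and 13 passed the size rule. *Ifit3*, an antiviral effector, stood at 102 CPM in 343 of 731 control cells and 17.4 CPM in 30 of 205 KO cells, a log2 ratio of -2.56 (-2.84 to -2.29). *Cxcl10*, a chemokine for T cells, stood at 78.1 and 15.9 CPM, *Irf7*, the master regulator of type I interferon genes, at 158 and 46.96 CPM, and *Isg15*, a ubiquitin-like modifier, at 189.97 and 66.2 CPM. *Ifi204*, a DNA sensor, stood at 328 and 211 CPM and did not pass. In gate-negative cells the median was -1.53. Among members of 20000 to 40000 UMIs, an alternative added after the data were seen, all 15 were still lower and the median was -1.13.

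Promoters of 3 of these genes are shown because they hold the interferon response motif and belong to the list whose 15 genes all lay lower in KO members. The windows are 250 bases before to 50 after the RefSeq gene start in GRCm38.p6, at chr19:34583279-34583578 on the plus strand for *Ifit3*, chr4:156200769-156201068 on the minus strand for *Isg15* and chr5:92348840-92349139 on the minus strand for *Cxcl10*, each written 5′ to 3′ in the direction of the gene. Capitals mark GAAA followed by any 2 bases and GAAA, or TGACTCA, the core of the site that BACH1 and AP-1 factors share, on either strand.

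Ifit3: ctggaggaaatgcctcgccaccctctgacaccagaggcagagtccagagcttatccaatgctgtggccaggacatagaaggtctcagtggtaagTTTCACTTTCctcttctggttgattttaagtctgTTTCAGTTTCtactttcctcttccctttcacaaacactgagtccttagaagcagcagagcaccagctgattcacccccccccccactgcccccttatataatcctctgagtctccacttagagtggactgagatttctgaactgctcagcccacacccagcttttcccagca

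Isg15: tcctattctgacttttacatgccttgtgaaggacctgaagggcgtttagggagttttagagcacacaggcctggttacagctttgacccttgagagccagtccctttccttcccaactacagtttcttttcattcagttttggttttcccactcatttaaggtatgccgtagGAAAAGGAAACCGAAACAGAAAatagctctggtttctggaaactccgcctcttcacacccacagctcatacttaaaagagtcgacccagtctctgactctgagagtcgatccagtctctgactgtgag

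Cxcl10: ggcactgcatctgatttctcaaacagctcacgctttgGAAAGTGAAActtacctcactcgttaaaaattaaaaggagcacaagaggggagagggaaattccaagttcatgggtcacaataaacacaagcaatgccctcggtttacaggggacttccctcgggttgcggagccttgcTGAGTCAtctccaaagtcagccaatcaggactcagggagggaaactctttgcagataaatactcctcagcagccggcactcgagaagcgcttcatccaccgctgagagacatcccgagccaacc

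*Ifit3* held 2 GAAA pairs, *Isg15* held 3 that overlap each other, and *Cxcl10* held 1 along with 1 TGACTCA. Of the 15 interferon genes 11 were matched in the table, and 7 of these held a GAAA pair (*Isg15*, *Ifit1*, *Ifit3*, *Stat2*, *Rsad2*, *Gbp2* and *Cxcl10*), beside 3.99% of all 27025 gene symbols with a window. TGACTCA was found in 3 of the 11 (*Rsad2*, *Gbp2* and *Cxcl10*), and in *Srxn1*, *Me1* and *Prdx1* of 13 heme, iron and redox genes matched, beside 5.95% of all symbols. A match is a string of letters and does not show binding, and distal sites lie outside these windows.

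Inflammatory genes were higher in KO members. Of 17, 16 had a ratio above 1, with a median log2 ratio of 0.88, and 7 passed, all higher. In gate-negative cells the list median was 0.77. *Il1b*, the pro-inflammatory cytokine, stood at 113 and 394 CPM and was found in 304 of 731 control and 170 of 205 KO members. Those counts of members were not matched for depth. *Il1a* stood at 2.48 and 20.6 CPM, the neutrophil chemokine *Cxcl3* at 8.90 and 81.5 CPM, *Ptgs2*, the inducible cyclooxygenase, at 101 and 273 CPM, the endotoxin co-receptor *Cd14* at 251 and 597 CPM and the inflammasome sensor *Nlrp3* at 42.2 and 104 CPM. *Il6* was the seventh and rested on few molecules, in 14 control and 11 KO cells, and among members of 20000 to 40000 UMIs its direction turned. *Ccl2*, a monocyte chemokine, was the exception, at 2181 and 1531 CPM, and did not pass. The neutrophil markers quoted above differed between the libraries mainly through *S100a8* and *S100a9*, which the rule limits, and their part in these values was not tested.

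MHC class II genes were higher in KO members over all depths together, and how far depended on how depth was matched. *Cd74* stood at 131 and 289 CPM, *H2-Aa* at 63.2 and 152 CPM, *H2-Ab1* at 62.1 and 129 CPM and *H2-Eb1* at 44.1 and 112 CPM, and these 4 of 6 genes scored passed, with a list median of 1.10. Few cells carried them: 1 KO cell held 27.9% of the *H2-Ab1* UMIs and 28.7% of those of *H2-Eb1*. With each member thinned to 5000 UMIs the list median was 0.79, with 5 of 6 genes above 0. Among members of 20000 to 40000 UMIs, an alternative added after the data were seen, it was 0.02, with 3 of 6 above 0, and *H2-Ab1* turned to -0.26. The dendritic cell markers stood at 3.12 CPM in control and 21.9 CPM in KO members, and *Ccr7*, *Flt3* or *Zbtb46* was found in 11 of 731 control and 13 of 205 KO members (6.34%), cells with median depths of 26711 and 40142 UMIs. Their part in the class II values was not tested. In gate-negative cells the class II list median was 0.89.

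**Figure D5:**
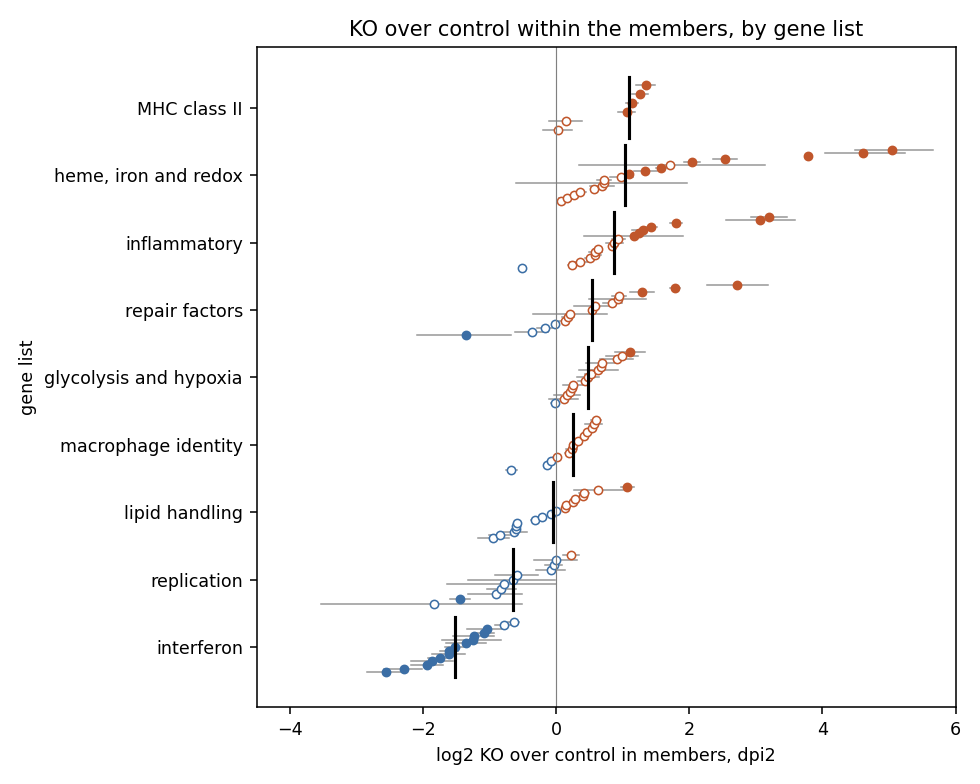
Log2 ratio of KO over control in the members at dpi2 for each gene of 9 lists (points; thin lines, 95% counting intervals; filled, past the size rule; black bars, list medians). All interferon genes lie below 0 and all heme, iron and redox genes above it.

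Some repair and protease genes passed the size rule. Of 15 repair factors 11 had a ratio above 1, with a median of 0.54, and 3 passed higher. Among these, *Vegfa*, the angiogenic factor, stood at 28.6 and 70.1 CPM, and *Areg*, a ligand of the EGF receptor, at 3.42 and 22.5 CPM in 10 cells of each library, where 1 KO cell held 63.9% of its UMIs. *Gdf3*, a TGF-beta family ligand of repair macrophages, was lower at 7.78 and 3.04 CPM, and 66.7% of its KO UMIs lay in 1 cell. *Igf1* stood at 231 and 253 CPM and did not pass. Of 14 proteases and inhibitors scored 2 were higher in KO and 1 lower. The membrane-bound *Mmp14* was higher and the collagenase *Mmp13* was lower, the latter at 34.2 and 9.57 CPM.

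Lipid handling genes lay on both sides of the control level in KO members. Of 18, 8 had a ratio above 1 and 10 below, with a median of -0.04, and 1 passed, the phospholipase *Pla2g7* at 114 and 239 CPM. *Pparg* at 51.9 and 26.96 CPM, the cholesterol exporter *Abcg1* at 111 and 61.7 CPM and *Lpl* at 1582 and 1046 CPM were below the control level without passing 2-fold. The glycolysis and hypoxia list had 14 of 15 ratios above 1 and a median of 0.47, and *Bnip3*, a hypoxia-induced mitophagy receptor, passed at 20.3 and 43.6 CPM. The replication list had 10 of 11 below 1 and a median of -0.65. *Ccnd1*, cyclin D1, passed at 158 and 57.97 CPM. Of 13 macrophage identity genes none passed, with a median of 0.25. Of 10 monocyte genes *Ly6c2* and *Plac8* were lower and *F13a1*, a transglutaminase, was higher at 186 and 455 CPM.

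The 10 highest genes by the limit of the ratio nearest 1 were *Lyz1*, *Ccr7*, *Mt3*, *Spic*, *Ccl5*, *Slc40a1*, *Hmox1*, *Clec4n*, *Bex1* and *Mirt1*, and several rested on single cells. *Clec4n*, which encodes the C-type lectin Dectin-2, was spread over 129 control and 123 KO cells at 16.4 and 194 CPM. *Mt3* had 84 UMIs in 1 KO cell and *Bex1* had 54 in 1 KO cell. *Ccr7*, a homing receptor of mature dendritic cells, had 111 UMIs in 5 KO cells, 55.9% of them in 1, and *Ccl5* had 57.7% of 272 UMIs in 1 cell. *Mirt1* had 53.2% of its UMIs in 1. Of the 10 lowest, *Lyz2*, *Dio2*, *Ifit3*, *Gm42835*, *Cxcl9*, *Cxcl10*, *Oasl1*, *Ifi44*, *Cmpk2* and *Ly6a*, 1 control cell held 95.3% of the *Cxcl9* UMIs, and with doublets removed that gene had 2 control UMIs and 1 KO UMI, too few to give a direction. *Dio2*, the enzyme that activates thyroid hormone, stood at 7.66 CPM in 56 control cells and 0.580 CPM in 3 KO cells, and *Gm42835* is annotated as an antisense transcript.

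Gate-negative cells came from the same libraries as the members. Of the 155 genes higher in KO members that were scored in gate-negative cells, 74 passed there in the same direction, and of 148 lower genes 73 did. Over all 10522 genes scored in gate-negative cells, 2.63% were higher in KO and 2.2% lower. Only 1 gene passed in opposite directions. Under the same rule at dpi4, 108 of the higher and 104 of the lower genes were scored, of which 20 and 15 passed in the same direction and 17 and 2 in the opposite one. Over all 9379 genes scored at dpi4, 56 were higher in KO (0.597%) and 292 lower (3.11%), so calls in the lower direction were the more common there.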

How the data were processed

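CD45+ cells of 4 libraries, control and KO at dpi2 and dpi4, were measured by 3′ single-cell RNA sequencing. The deposited files held raw UMI counts per gene and barcode, which the authors made without normalization; the submitters' processing notes name Cell Ranger 6.1.2 and mm10. The labels give the version of the 3′ kit differently from the study's methods. Groups were taken from the labels.

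The members and gene lists were chosen with earlier results of these data known. Barcodes with at least 500 genes and under 10% mitochondrial UMIs were kept, leaving 17665 of 20500. Member depth ran from 1850 to 77757 UMIs at dpi2. UMIs were summed over members per library, divided by their total and given as CPM with exact Poisson intervals. Ratios have exact conditional binomial intervals, shares exact Clopper-Pearson intervals and differences of shares Newcombe intervals, all 95%. With 1 library per group no test or p-value was computed, and the size rule (at least 2-fold, interval leaving out 1, at least 50 UMIs) describes these libraries only. List medians used genes with at least 20 UMIs. Fewer UMIs per cell and fewer cells with a transcript cannot be told apart in summed counts. Shares were compared after thinning to 5000 UMIs. Doublets were left in, and their removal with Scrublet was an alternative.

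Named genes were the genes of the rule, the genes of the lists, the 10 highest and 10 lowest of KO over control by the interval limit nearest 1, and the 12 highest and 8 lowest of members over gate-negative cells by the smaller log2 ratio. The size rule was tried on simulated summed counts with counting error only, which hold no spread between cells or animals. Python 3.11.15, numpy 2.4.6, scipy 1.17.1 and scanpy 1.11.5 were used. Gene positions came from GENCODE M21, and promoters from RefSeq, GRCm38.p6. Some listed genes are not reported here by name.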

Additional observations from a re-analysis of the deposited data

Results flagged for a closer look

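In the members, 7 of the genes and list genes named above that are no genes of the rule passed the size rule higher in KO at dpi2 and lower in KO under the same rule at dpi4, and the difference between the time points was not tested. The log2 ratio of KO over control was 1.80 at dpi2 and -2.11 at dpi4 for *Il1b*, and 1.30 and -1.11 for *Nlrp3*. It was 1.26 and -2.03 for *H2-Aa*, 1.06 and -1.93 for *H2-Ab1*, 1.35 and -2.01 for *H2-Eb1*, and 1.14 and -2.03 for *Cd74*. Among dpi2 members of 20000 to 40000 UMIs these 4 genes no longer passed, at 0.07, -0.26, 0.09 and 0.14, and 1 KO cell held between 15.6% and 28.7% of the UMIs of each at dpi2. *Bex1* was 4.25 and -1.68, where all 54 KO UMIs at dpi2 came from 1 cell. The neutrophil marker *S100a9* had 1.6 and -3.70, with 3 KO UMIs at dpi4, but the rule itself limits its level in members, so these values are a description only.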

How the results depend on the processing

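The share difference of -6.77 points moved to -5.55 with at least 2 *Pdpn* UMIs and to -3.65 with the rule applied to cells thinned to 5000 UMIs, and was negative under every alternative tried. The 325 genes past the size rule for KO over control became 876 at 1.5-fold and 141 at 200 UMIs, 236 after thinning and 288 among members of 20000 to 40000 UMIs. The 1024 genes of members over gate-negative cells became 2190 at 1.5-fold, 754 after thinning to 5000 UMIs and 751 against the comparison cells with *Adgre1* and without *Flt3*, *Cd209a* and *Klrd1*. The TMM scaling shifted members over gate-negative cells by -0.12 in control and left KO over control within 0.01 on the log2 scale.

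Of list medians, 2 changed sign: osteopontin receptors gave 0.024 without doublets, 0.000703 with at least 2 *Pdpn* UMIs, 0.00806 with TMM, 0.062 after thinning and 0.20 among members of 20000 to 40000 UMIs, where monocyte identity gave -0.12. Of named genes, *Cxcl9* turned to 0.22 without doublets, and among members of 20000 to 40000 UMIs *Il6* turned to -0.95 and *H2-Ab1* to -0.26. Removing doublets took out 58 control and 9 KO members. Each genotype and time was 1 library, so the spread between animals was not measured and no replicate could be left out. No paired analysis was possible because each group held 1 library.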
